A study of Mus musculus with 8 samples.

Results

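The 10 genes described here carry out or control antigen presentation by the major histocompatibility complex (MHC), and they were chosen by symbol from the 22063 genes of the expression table. The 6 class I genes were H2-K1, H2-D1, B2m, Tap1, Tap2 and Nlrc5, and the 4 class II genes were Cd74, H2-Aa, H2-Ab1 and Ciita. MHC class I molecules stand on nearly all nucleated cells and show CD8 T cells peptides that the proteasome cut from cytosolic proteins, which the TAP transporter carries into the endoplasmic reticulum. MHC class II molecules belong to macrophages, dendritic cells and B cells, load peptides from the endosome and show them to CD4 T cells. The class I genes respond to interferon through IRF1 and the transactivator NLRC5, whereas the class II genes depend on the transactivator CIITA, and both transactivators act on a shared promoter module of X and Y boxes.

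RNA-seq had been carried out on 8 libraries of total RNA from wild-type mice, labelled as liver, of which 4 were labelled control and 4 control with tranilast, an anti-allergic drug. The labels name no diet, and the series design places both groups on a high-fat and high-cholesterol (HFHC) diet, so that the control mice were HFHC-fed too. The methods describe young adult male C57BL/6J mice that were gavaged daily with tranilast or with vehicle in the later weeks of the diet, and the dose of the sequenced mice is not named in the sources used here. The labels number the libraries in each group and do not state that each came from its own animal, so the p-values measure the spread between these libraries, which may be technical.

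The libraries held between 12053036 and 15618789 counts, and the defining markers of liver were absent from them. Of 9 hepatocyte markers, 4 were at 0 in every library and the list summed to between 0 and 23 counts, whereas 12 macrophage markers made up 1.08% to 1.13% of each control library and 1.06% to 1.12% of each tranilast library. Within that nearly equal sum, 7 of the 10 macrophage markers tested were lower with tranilast, 2 were higher and 1 was not called, and Fcgr1 moved most, from between 1104 and 1731 counts in the control to between 462 and 615 (log2 fold change -1.42). The macrophage markers Mrc1 and Mertk had at most 3 counts in every library. Lyz2 alone held between 51267 and 68975 counts, where the whole macrophage list summed to between 132656 and 171246. The Kupffer cell markers Clec4f, Vsig4 and Timd4 were at 0 in all 8 libraries. Among the markers of other presenting cells, the 10 dendritic cell genes summed to between 39 and 53 counts in the control and between 53 and 78 in the tranilast libraries, and the 8 B cell genes to between 824 and 964 and between 851 and 1116, nearly all of it Ighm, with Ms4a1 and Igkc at 0. The part of these cells in the results was not tested, and in bulk RNA fewer cells of a type and less RNA per cell cannot be told apart. Of the 10770 genes that passed the filter on low counts, 57.0% were called between tranilast and control at an adjusted p-value under 0.05 (edgeR quasi-likelihood test with Benjamini-Hochberg adjustment), 28.2% higher and 28.8% lower, and the CPM (counts scaled to a common library size, here by the TMM method) of the groups did not overlap for 49.8%.

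The promoter module of X and Y boxes joins the class I and class II genes, so its sequence was examined first. RefSeq promoter sequences on GRCm38.p6 were at hand for 5 of the 10 genes, and the 250 bases before each transcript start were searched on both strands for TGACG, the core of the X2 box, and ATTGG, the core of the Y box. In 4 of the 5, namely the class I genes B2m, H2-K1 and H2-D1 and the class II gene H2-Aa, both cores stood on the gene's own strand and were separated by 20 or, in H2-Aa, 21 bases. The cores are printed in capitals so that the spacing can be compared, and in H2-Aa the X2 core is matched on both strands, so that TGACGTCA is in capitals.
B2m, chr2:122147609-122147638, plus strand: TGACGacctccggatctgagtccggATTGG
H2-K1, chr17:34000359-34000388, minus strand: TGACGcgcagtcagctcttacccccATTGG
H2-D1, chr17:35262993-35263022, plus strand: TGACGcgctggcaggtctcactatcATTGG
H2-Aa, chr17:34287867-34287897, minus strand: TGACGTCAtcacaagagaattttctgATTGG

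The letters between the cores differed among the 4 genes while the distance hardly did. The H2-D1 stretch lies before the RefSeq start, whereas in GENCODE M21 the H2-D1 gene begins at position 35262730 and covers the stretch. The spacing was noticed after the sequences were seen. Among all 32851 promoter windows of the same length, 17.8% held TGACG, 33.8% held ATTGG and 0.152% (50 windows) held both at 20 or 21 bases, and among 71 other genes of the presentation pathway with a promoter sequence only H2-M3, a class Ib heavy chain, held the spaced pair. Tap1 held the X2 core without the spaced Y core. In Tap1 the X2 core overlapped by 2 letters a match to the X1 box, searched as CC, any base, AG, any 2 bases, AC, any base, G, any base, TG and found in 0.256% of windows, and the capitals mark the joined X1 and X2 letters.
Tap1, chr17:34187446-34187486, plus strand: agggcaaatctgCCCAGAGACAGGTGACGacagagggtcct

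By its RefSeq start, the immunoproteasome gene Psmb9 begins 226 bases from Tap1 and runs in the opposite direction, with this stretch between the starts, whereas in GENCODE M21 Psmb9 reaches to position 34187764 and covers the stretch. Farther upstream, B2m held an interferon-stimulated response element (ISRE), searched as GAAA, any 2 bases, GAAA and found in 2.98% of windows, next to an NF-kB site, searched as GGGA, any 4 bases, CC and found in 17.6% of windows. The class I genes H2-K1 and H2-D1 and the class II gene H2-Aa held the NF-kB letters and not those of the ISRE. Tap1 held neither. The longer stretches of B2m, which was expressed at a high level, and of H2-Aa, which was hardly detected, are shown for comparison, with all matched motifs in capitals.
B2m, chr2:122147542-122147647, plus strand: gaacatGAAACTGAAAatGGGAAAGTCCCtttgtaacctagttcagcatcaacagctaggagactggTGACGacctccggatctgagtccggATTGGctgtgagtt
H2-Aa, chr17:34287863-34287968, minus strand: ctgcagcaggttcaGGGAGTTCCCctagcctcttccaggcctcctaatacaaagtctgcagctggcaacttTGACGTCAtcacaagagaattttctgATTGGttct

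These matches describe letters, and occupancy of the sites was not measured.

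On the scale of FPKM, fragments scaled for transcript length and sequencing depth, which allows genes to be compared, the presentation genes spanned from a high level to the detection limit. B2m, the light chain shared by all class I molecules, had the highest level, with a mean of 623 FPKM over the 8 libraries (566 to 705). Cd74, the invariant chain that escorts class II molecules to the endosome, followed with 465 FPKM (448 to 483), although it is a class II gene. The heavy chains were lower, H2-D1 at 178 FPKM (164 to 193) and H2-K1 at 54.6 FPKM (47.7 to 65.3). The transporter subunits were lower again, Tap1 at 25.6 FPKM (20.3 to 30.4) and Tap2 at 14.1 FPKM (10.8 to 15.9), and the transactivator Nlrc5 had 7.73 FPKM (6.02 to 10.8).

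Up to Tap2 the ranges of neighbouring genes did not overlap. The ranges of Tap2 and Nlrc5 overlapped, but Tap2 was above Nlrc5 in all 8 libraries. The remaining class II genes lay far below: H2-Ab1 averaged 0.162 FPKM, H2-Aa 0.0615 and Ciita 0.0105, with ranges that overlapped each other. H2-Aa was listed at 0 in 5 of the 8 libraries, Ciita in 4 and H2-Ab1 in 1.

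**Figure D1:**
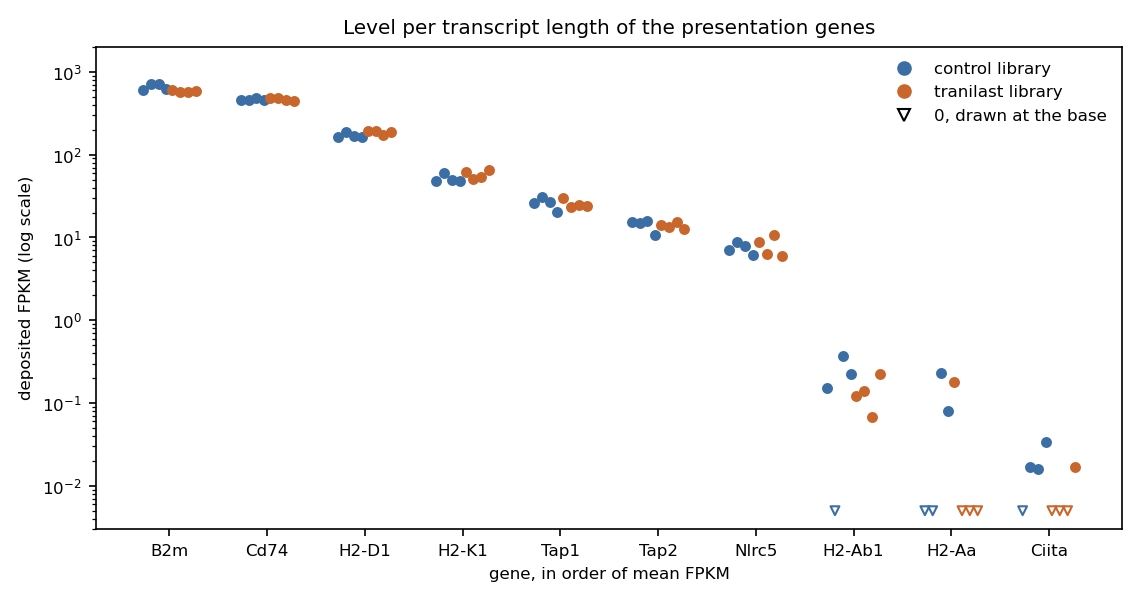
Deposited FPKM on a log scale for the 10 presentation genes, in order of their mean, with 1 point for each of the 4 control and 4 tranilast libraries and open triangles for libraries at 0. The first 7 genes run from B2m at 566 to 705 FPKM down to Nlrc5 at 6.02 to 10.8, and H2-Ab1, H2-Aa and Ciita lie below 0.4 FPKM in every library.

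The class I genes were then compared between the tranilast and control groups. B2m was lower with tranilast and no other class I gene of the 6 was called. The B2m gene lies at chr2:122147686-122153083 on the plus strand (GRCm38), with 4 exons in its single annotated transcript. B2m measured 546, 634, 633 and 561 CPM in control libraries 1 to 4 and 505, 475, 469 and 484 CPM in tranilast libraries 1 to 4. Every tranilast library was below every control library, on the FPKM scale as well. The mean fell by 18.6%, from 593 ± 46.5 to 483 ± 16 CPM (SD, n = 4 each), with a log2 fold change of -0.30 (SE 0.042, edgeR adjusted p = 1.04e-05). This was near the median absolute log2 fold change of 0.32 among all called genes.

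The heavy chains that pair with B2m showed no such separation. H2-D1 (chr17:35262730-35267499, plus strand) measured 351, 405, 361 and 356 CPM in the control and 383, 377, 340 and 365 CPM in the tranilast libraries, so that the groups overlapped nearly throughout. The means were 368 ± 24.8 and 366 ± 19.2 CPM, with a log2 fold change of -0.01 (SE 0.043, edgeR adjusted p = 0.899). H2-K1 (chr17:33996017-34000347, minus strand) measured 55.1, 70.1, 60.3 and 52.6 CPM in the control and 64.6, 54.8, 56.4 and 68.0 CPM in the tranilast libraries. Its groups overlapped too, with a log2 fold change of 0.04 (SE 0.081, edgeR adjusted p = 0.723). The heavy chain genes are close relatives of each other and of the H2-Q and H2-T genes, and reads shared between them could not be told apart in the counts.

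**Figure D2:**
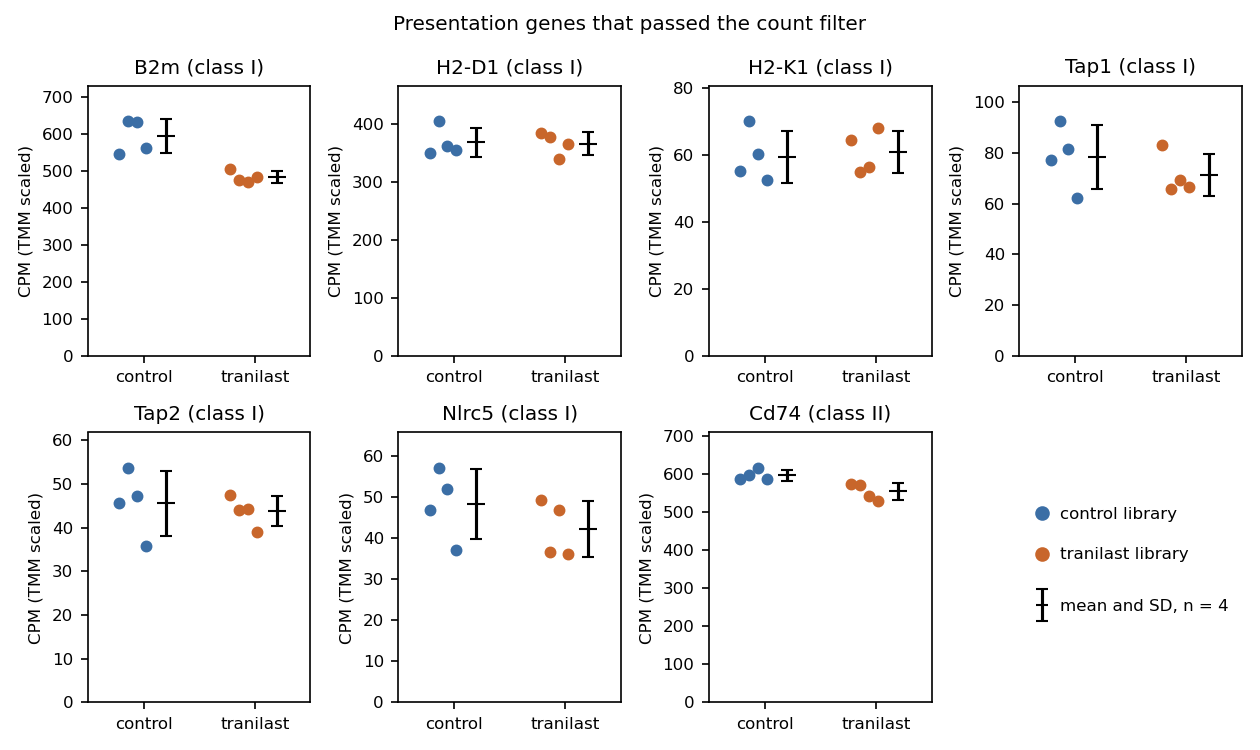
CPM scaled by TMM in each of the 4 control (blue) and 4 tranilast (orange) libraries for the 7 presentation genes that passed the filter on low counts, with the mean and SD beside the points and each axis starting at 0. The groups are apart for B2m and Cd74 and overlap for H2-D1, H2-K1, Tap1, Tap2 and Nlrc5.

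Because B2m and its heavy chains are counted in the same library, their ratio does not depend on how libraries are scaled. The counts of H2-K1 and H2-D1 together, divided by those of B2m, ranged from 0.666 to 0.749 in the control (0.721 ± 0.0380, SD, n = 4) and from 0.845 to 0.909 in the tranilast libraries (0.884 ± 0.0271). The heavy chains thus stood higher against B2m in each tranilast library than in any control library. The balance of the heavy chains themselves, H2-K1 over H2-D1, was 0.161 ± 0.0112 in the control and 0.167 ± 0.0168 in the tranilast libraries and overlapped. B2m also serves class Ib molecules, the neonatal Fc receptor and Hfe, whose heavy chains are given with the other heavy chains.

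**Figure D3:**
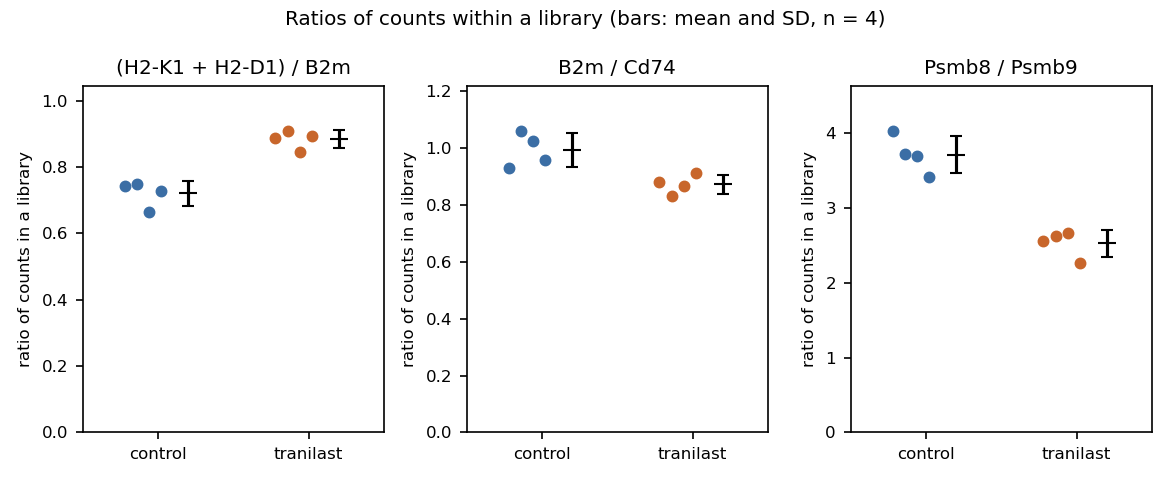
Ratios of counts within each library for the heavy chains over B2m, B2m over Cd74, and Psmb8 over Psmb9, with 1 point per library, the mean and the SD (n = 4) and axes from 0. Heavy chains over B2m are 0.845 to 0.909 with tranilast against 0.666 to 0.749 in the control, and the groups do not overlap in any of the 3 ratios.

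The transporter and the class I transactivator varied more between libraries of a group than between the groups. Tap1 (chr17:34187553-34197225, plus strand) measured 77.0, 92.4, 81.4 and 62.3 CPM in the control and 83.1, 65.7, 69.2 and 66.6 CPM in the tranilast libraries (log2 fold change -0.14, SE 0.091, edgeR adjusted p = 0.208). Tap2 (chr17:34203527-34216321, plus strand), the other subunit, measured 45.6, 53.7, 47.2 and 35.8 CPM and 47.4, 44.0, 44.3 and 39.1 CPM (log2 fold change -0.06, SE 0.090, edgeR adjusted p = 0.579). Nlrc5 (chr8:94434356-94527272, plus strand) measured 46.9, 57.2, 52.1 and 37.1 CPM and 49.3, 36.6, 47.0 and 36.1 CPM (log2 fold change -0.20, SE 0.112, edgeR adjusted p = 0.142).

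By CPM, in all 3 genes control library 2 was the highest and control library 4 the lowest of the controls, and tranilast library 1 was the highest of its group. On the FPKM scale Tap2 was highest in control library 3 and tranilast library 3, and Nlrc5 was highest of its group in tranilast library 3. Without control library 4 the log2 fold change was -0.23 for Tap1 (edgeR adjusted p = 0.0130) and -0.31 for Nlrc5 (edgeR adjusted p = 0.0111). Without tranilast library 1 it was -0.22 for Tap1 (edgeR adjusted p = 0.0426) and -0.28 for Nlrc5 (edgeR adjusted p = 0.0457). Without control library 2 it was weaker, at -0.05 for Tap1 (edgeR adjusted p = 0.638) and -0.11 for Nlrc5 (edgeR adjusted p = 0.423). These were the extreme libraries of their groups by CPM, so the direction of each shift follows from which library was left out. The calls of Tap1 and Nlrc5 without control library 4 or tranilast library 1 therefore cannot decide whether the groups differ. Tap2 was not called with any 1 library left out (lowest edgeR adjusted p = 0.0602). Nlrc5 was also called when genes of low counts were kept (edgeR adjusted p = 0.0322). In that fit 40.5% of 15421 genes were called. On the log2(FPKM + 1) scale the log2 fold change of Nlrc5 was 0.06. The length that the deposited FPKM implies for Nlrc5 ran from 4.52 kb in tranilast library 3 to 6.41 kb in control library 1, whereas it was 0.86 kb for B2m in every library, so the FPKM and CPM of Nlrc5 order the libraries differently.

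The SD of log2 CPM within groups was 0.25 for Nlrc5, 0.20 for Tap1, 0.19 for Tap2 and 0.17 for H2-K1. Among genes of like level these values lay at the percentiles 99.3, 98.7, 98.6 and 98.1. H2-D1 lay at 95.5 and B2m at 94.2, whereas Cd74 lay at 68.8. All 6 class I genes were therefore among the more variable genes of their level, and Cd74 was less so. The same highest and lowest libraries as in Tap1, Tap2 and Nlrc5 were found in Irf2, Irf9 and Ptpn2 of the interferon pathway. They were also found in the heavy chains H2-T23 and H2-T24, in Psmb8, and in H2-Ob, Ctss and Icam1 of the other lists. Of all genes tested, 3.35% had this order. This order of libraries was chosen after the values were seen.

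**Figure D4:**
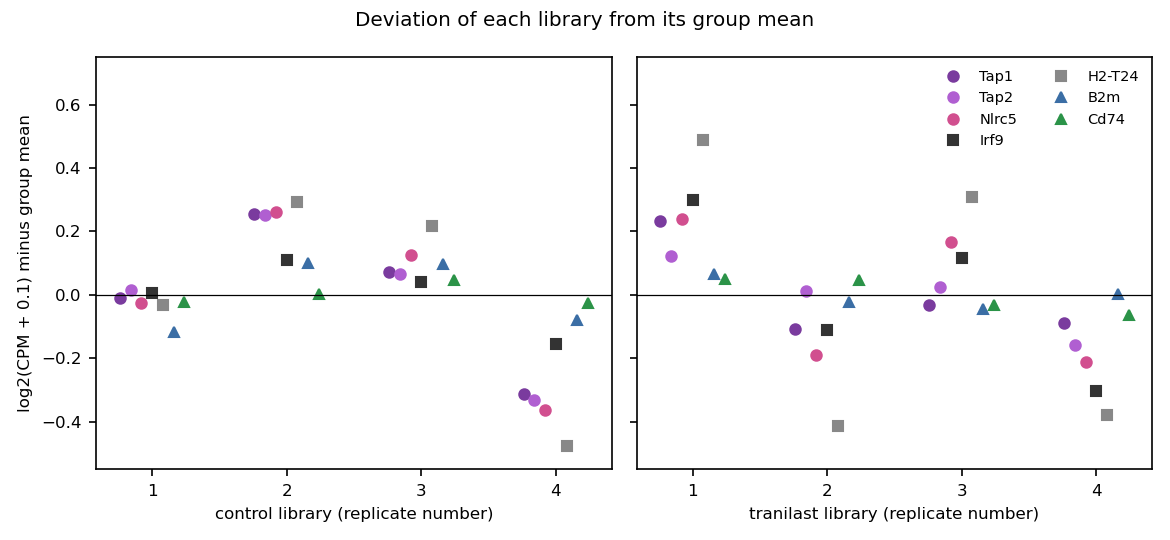
Deviation of log2(CPM + 0.1) in each library from the mean of its group for Tap1, Tap2 and Nlrc5 (circles), Irf9 and H2-T24 (squares), and B2m and Cd74 (triangles), with control libraries on the left, tranilast libraries on the right and replicate numbers on the horizontal axis. Circles and squares are high together in control library 2 and tranilast library 1 and low together in control library 4, while the triangles span a smaller range.

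The class II genes divided into a highly expressed chaperone and chains near the detection limit. Cd74 (chr18:60803848-60812652, plus strand) measured 587, 598, 616 and 585 CPM in the control and 573, 572, 541 and 530 CPM in the tranilast libraries, without overlap. The mean fell by 7.16%, from 597 ± 14.2 to 554 ± 21.7 CPM (SD, n = 4 each), with a log2 fold change of -0.11 (SE 0.030, edgeR adjusted p = 0.00480). This call depended on the scaling of the libraries. With upper-quartile factors the log2 fold change was -0.04 (edgeR adjusted p = 0.245), and with the library size alone or on the log2(FPKM + 1) scale it was 0.01, a change of direction, and the FPKM of the groups overlapped. With the library size alone the median log2 fold change of all genes was 0.12, against 0.01 with TMM factors, so that Cd74 was below the median of all genes under both.

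H2-Aa (chr17:34282744-34287823, minus strand) and H2-Ab1 (chr17:34257689-34269419, plus strand), the chains of the I-A molecule, did not pass the filter on low counts. H2-Aa had 0, 0, 3 and 1 counts in the control and 2, 0, 0 and 0 in the tranilast libraries. H2-Ab1 had 2, 0, 7 and 4 counts in the control and 2, 2, 1 and 4 in the tranilast libraries. All but 3 of these 16 values lie within the 3 counts that a count of 0 allows, and no difference between the groups was detected (exact two-sided permutation test, p = 0.714 for H2-Aa and 0.857 for H2-Ab1). Together with H2-Eb1, the beta chain of I-E, the chains held 37 counts over all libraries beside 65328 counts of Cd74. They reached at most 0.152% of the counts of the chains and Cd74 together, in control library 3 (95% Clopper-Pearson interval 0.083% to 0.254%, counting error only). They were at 0 in control library 2.

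Ciita (chr16:10480059-10528418, plus strand) had 0, 1, 1 and 2 counts in the control and 0, 0, 0 and 1 in the tranilast libraries, which is below 3 counts throughout (exact two-sided permutation test, p = 0.143). The class II transactivator and the class II chains were thus at or near the detection limit in both groups, while Cd74 stood at the percentile 99.4 of all genes of the table by FPKM. Among the dendritic cell markers, Cd209a and Batf3 were at 0 in all libraries and Flt3 had at most 3 counts, whereas Itgax had 11 to 30 counts and Zbtb46 had 12 to 20 in the control and 21 to 49 with tranilast. Zbtb46 was called higher (log2 fold change 1.24, edgeR adjusted p = 0.00146) and Itgax was not, and among those of B cells Ms4a1 and Igkc were at 0.

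Class I and class II were compared within libraries through their most abundant members. The counts of B2m divided by those of Cd74 ranged from 0.930 to 1.06 in the control (0.994 ± 0.060, SD, n = 4) and from 0.831 to 0.914 in the tranilast libraries (0.873 ± 0.0345). The groups did not overlap, so that B2m was lower against Cd74 with tranilast however the libraries are scaled (exact two-sided permutation test, p = 0.0286, the smallest that 4 libraries against 4 allow). The FPKM of Cd74 over those of H2-K1 and H2-D1 together was 2.09 ± 0.145 in the control and 1.92 ± 0.105 in the tranilast libraries, and the groups overlapped. In all, 1 of the 6 class I genes tested and the single class II gene tested were called, both lower, beside 28.8% of all genes called lower. The median log2 fold change was -0.10 over the class I genes and 0.01 over all genes.

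The other genes of the pathways were taken from lists of 93 names, of which 83 were in the table and 66 were tested. Of these, 14 were higher and 26 lower with tranilast, which is 60.6% called beside 57.0% of all genes.

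The genes that supply and load class I peptides were mostly lower. Of 15 tested, 11 were lower, 1 was higher and 3 were not called, beside 28.8% lower and 28.2% higher among all genes, and the median log2 fold change was -0.20 beside 0.01. Psmb8, an interferon-inducible catalytic subunit of the immunoproteasome, measured 76.1, 87.0, 72.7 and 69.5 CPM in the control and 54.9, 49.7, 51.0 and 48.2 CPM in the tranilast libraries. The groups were well apart, with a log2 fold change of -0.58 (SE 0.064, edgeR adjusted p = 3.66e-07). Psmb10, the second such subunit, measured 37.2, 43.3, 35.0 and 33.0 CPM and 27.2, 21.7, 29.9 and 21.7 CPM, with a log2 fold change of -0.57 (SE 0.101, edgeR adjusted p = 0.000108). Psmb9, the third, was not called. It measured 18.9, 23.4, 19.7 and 20.4 CPM in the control and 21.5, 19.0, 19.1 and 21.3 CPM in the tranilast libraries (log2 fold change -0.03, SE 0.085, edgeR adjusted p = 0.817). The counts of Psmb8 divided by those of Psmb9 were 3.71 ± 0.250 in the control and 2.52 ± 0.183 in the tranilast libraries, without overlap, although the genes are neighbours in the MHC. Tap1, the close neighbour of Psmb9, had a ratio to it of 3.80 ± 0.50 and 3.52 ± 0.313, with overlap.

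The genes of the PA28 family of proteasome activators were lower as well, with log2 fold changes of -0.40 for Psme3 (PA28 gamma), -0.35 for Psme2 and -0.23 for Psme1. The loading complex held lower genes too. Tapbp (tapasin), which bridges TAP and the class I molecule, measured 279, 286, 280 and 251 CPM in the control and 226, 212, 236 and 203 CPM in the tranilast libraries (log2 fold change -0.32, SE 0.046, edgeR adjusted p = 1.04e-05). The chaperones Pdia3, Calr and Canx, which fold many glycoproteins besides class I, had log2 fold changes of -0.20, -0.18 and -0.14. Among the peptidases, Npepps was at -0.33 and Erap1, which trims peptides in the endoplasmic reticulum, at -0.15, while Lnpep was higher at 0.12. The tapasin-related Tapbpl (0.17) and the insulin-degrading enzyme Ide (0.04) were not called. The calls of Psme1, Canx and Erap1 were lost when the library size alone was used (edgeR adjusted p = 0.0889, 0.429 and 0.482).

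The other class I and class Ib heavy chains changed in both directions. Of 25 names, 19 were in the table and 11 were tested, of which 2 were lower, 2 higher and 7 not called, so that 36.4% were called beside 57.0% of all genes. H2-T24, a class Ib gene, measured 86.4, 108, 103 and 63.4 CPM in the control and 61.3, 32.7, 54.1 and 33.5 CPM in the tranilast libraries, a narrow gap between the groups, with a log2 fold change of -0.997 (SE 0.169, edgeR adjusted p = 6.73e-05). H2-T23, whose product Qa-1 is a ligand of CD94 and NKG2 receptors, measured 57.0, 63.7, 53.6 and 41.5 CPM and 46.9, 42.1, 44.4 and 35.1 CPM, with overlap and a log2 fold change of -0.36 (SE 0.102, edgeR adjusted p = 0.00585), and it was not called on the log2(FPKM + 1) scale (limma adjusted p = 0.142). Fcgrt, the heavy chain of the neonatal Fc receptor, was the one that rose most, from 4.29 ± 0.599 to 7.47 ± 1.06 CPM (log2 fold change 0.80, SE 0.155, edgeR adjusted p = 0.000241), and its groups did not overlap. H2-T22 was higher by a log2 fold change of 0.24 (edgeR adjusted p = 0.0312), and this call was lost without control library 4 (edgeR adjusted p = 0.114), tranilast library 1 (edgeR adjusted p = 0.114) or tranilast library 4 (edgeR adjusted p = 0.0632). H2-Q4 (0.06), H2-Q6 (-0.04), H2-Q7 (-0.17), H2-Q1 (-0.23), H2-M3 (-0.07), Mr1 (0.54) and the iron regulator Hfe (-0.28) were not called.

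**Figure D5:**
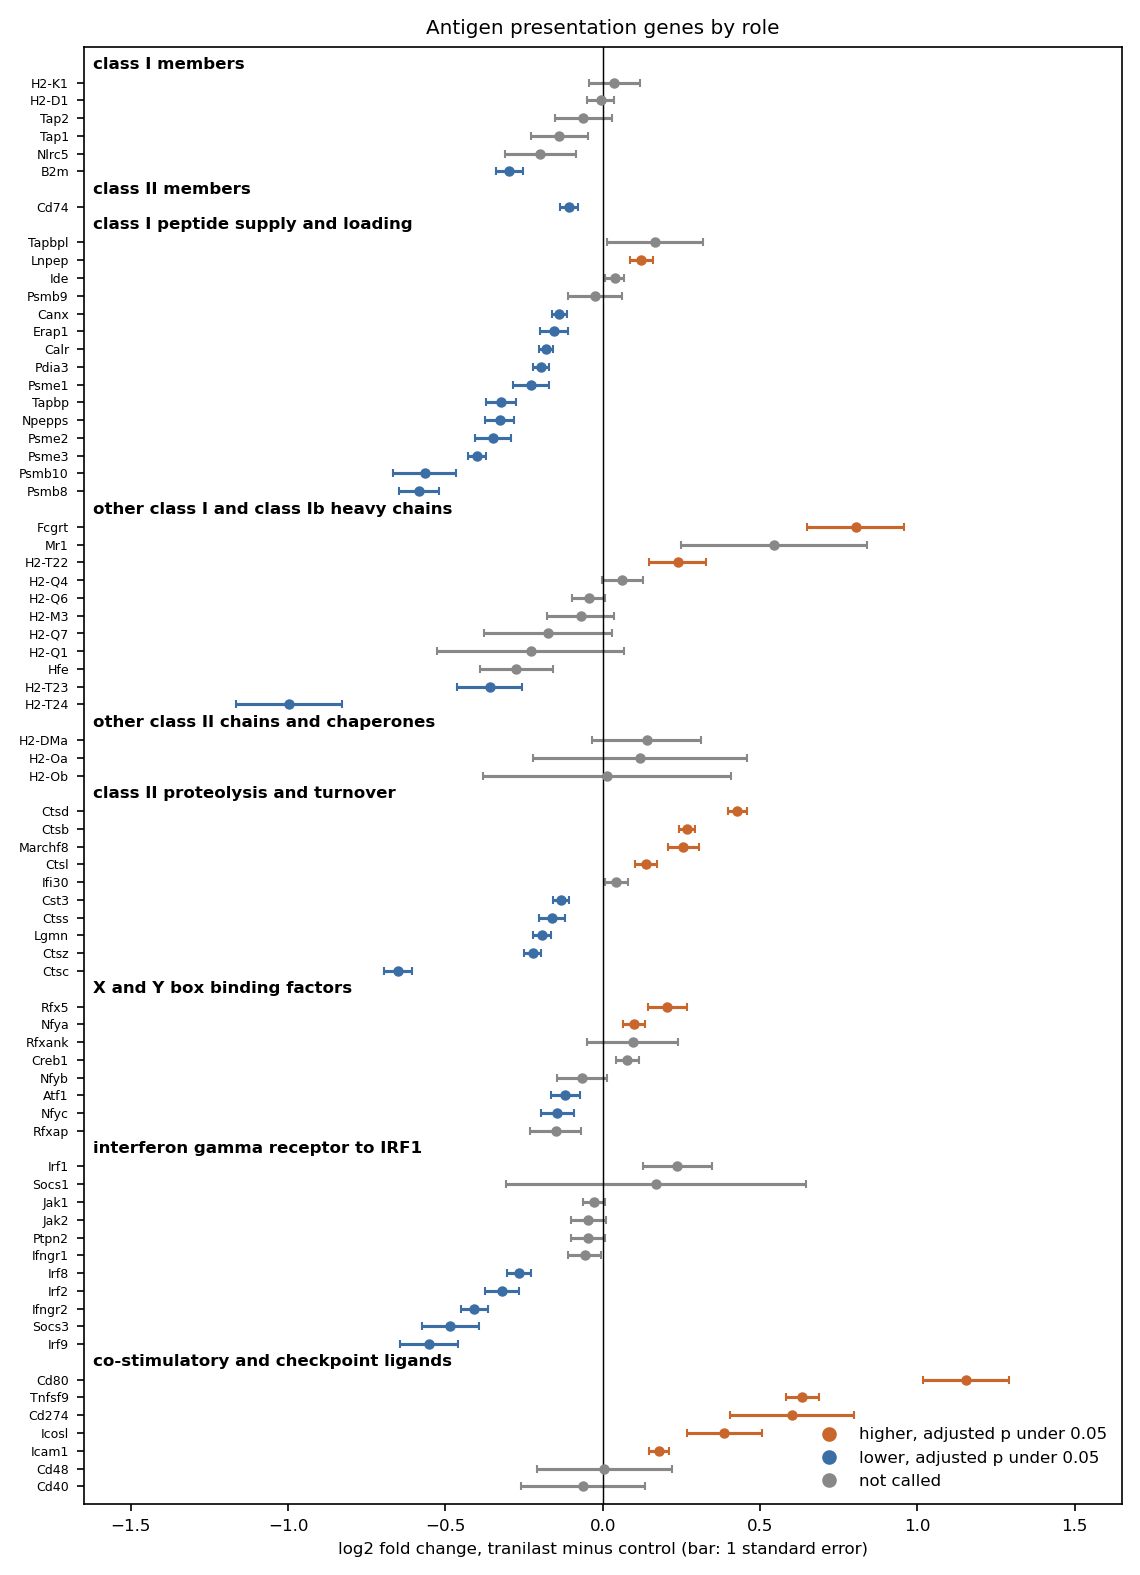
Log2 fold change, tranilast minus control, from the edgeR fit with 1 standard error for the tested genes of the presentation lists that are reported here, ordered by role, with orange for higher, blue for lower and grey for not called at an adjusted p-value under 0.05. Of the 15 genes for peptide supply and loading 11 are blue, whereas the co-stimulatory ligands hold 5 orange points and no blue one.

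The class II chaperones were low in both groups. H2-DMa, a chain of the peptide exchange factor H2-DM, had between 68 and 110 counts, H2-Oa between 9 and 24 and H2-Ob between 5 and 14, and none of the 3 was called, with log2 fold changes of 0.14, 0.12 and 0.01. Their partner chains H2-DMb1 and H2-DMb2 had at most 3 and 5 counts, and H2-Eb1 at most 4.

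The endosomal enzymes of the class II route, most of which serve lysosomal breakdown in general, were expressed at a high level and changed in both directions. Of 10 tested, 4 were higher, 5 lower and 1 not called, beside 28.2% higher and 28.8% lower among all genes. The cathepsins Ctsd (0.43, SE 0.030), Ctsb (0.27, SE 0.026) and Ctsl (0.14, SE 0.034) were higher, with the ubiquitin ligase Marchf8 (0.26, SE 0.048), which removes class II molecules from the surface. Ctsd measured 993, 1033, 978 and 961 CPM in the control and 1361, 1402, 1269 and 1300 CPM in the tranilast libraries, well apart. Ctsc was lower by a log2 fold change of -0.65 (SE 0.044, edgeR adjusted p = 6.94e-10), at 93.1, 94.7, 93.9 and 86.9 CPM against 59.0, 61.2, 57.1 and 57.5 CPM. Ctss, the cathepsin that makes the last cuts in the invariant chain, was at -0.16 (SE 0.041, edgeR adjusted p = 0.00269), Lgmn at -0.19, Ctsz at -0.22 and the inhibitor Cst3 at -0.13, and the thiol reductase Ifi30 was not called (0.04). The calls of Ctss and Cst3 were lost with the library size alone (edgeR adjusted p = 0.344 and 0.564). Ctsh had at most 7 counts.

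The factors that bind the X and Y boxes were all expressed and moved little, with 2 of 8 called higher and 2 lower, beside 57.0% of all genes called. Rfx5, a subunit of the RFX complex that both transactivators need, measured 34.7, 36.1, 41.6 and 40.6 CPM in the control and 44.7, 43.2, 43.4 and 45.2 CPM in the tranilast libraries, without overlap (log2 fold change 0.21, SE 0.061, edgeR adjusted p = 0.00789). Rfxap (-0.15), Rfxank (0.10), Nfyb (-0.07) and Creb1 (0.08) were not called. Nfya was higher by 0.10 (edgeR adjusted p = 0.0222), Nfyc lower at -0.14 (edgeR adjusted p = 0.0226) and Atf1 lower at -0.12 (edgeR adjusted p = 0.0321). These 3 calls did not hold throughout. That of Nfya was lost without control library 1, control library 3 or tranilast library 3 (edgeR adjusted p = 0.0730, 0.0745 and 0.0592), and that of Nfyc without control library 3 or tranilast library 1 (edgeR adjusted p = 0.0791 and 0.0576). That of Atf1 was lost without control library 1, control library 3, tranilast library 1 or tranilast library 4 (edgeR adjusted p = 0.0912, 0.0654, 0.115 and 0.0981). The calls of Nfyc and Atf1 were also lost with upper-quartile factors (edgeR adjusted p = 0.215 and 0.346), with the library size alone (0.667 and 0.965) and on both FPKM scales.

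Of the interferon gamma route, 12 of 13 genes were tested, of which 6 were lower, none was higher and 6 were not called, so that 50% were called beside 57.0% of all genes, and Ifng itself was at 0 in every library. Irf9, a factor of the response to type I interferon, measured 81.3, 87.3, 83.3 and 72.8 CPM in the control and 67.5, 50.7, 59.3 and 44.4 CPM in the tranilast libraries. It was lower without overlap (log2 fold change -0.55, SE 0.091, edgeR adjusted p = 4.75e-05). The receptor subunit Ifngr2 was lower (-0.41, SE 0.043), as were Socs3 (-0.48, SE 0.090), Irf2 (-0.32, SE 0.054) and Irf8 (-0.27, SE 0.039), and Ifngr1 (-0.06), Jak1 (-0.03), Jak2 (-0.05), Ptpn2 (-0.05) and Socs1 (0.17) were not called. On the log2(FPKM + 1) scale Irf2 was not called (limma adjusted p = 0.112).

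Irf1, which acts on class I promoters, was not called. It measured 25.6, 32.8, 28.3 and 25.8 CPM in the control and 42.3, 28.6, 33.1 and 28.6 CPM in the tranilast libraries, and its log2 fold change was 0.24 (SE 0.110, edgeR adjusted p = 0.0742). This depended on the libraries and the scaling. Irf1 was called higher in 8 of the 18 alternatives run. It was called without control library 2, tranilast library 2 or tranilast library 4 (edgeR adjusted p = 0.0216, 0.0340 and 0.0289). The same held with the library size alone, upper-quartile factors or no filter (edgeR adjusted p = 0.00873, 0.0224 and 0.0212). It also held on both FPKM scales (limma adjusted p = 0.00406 and 0.00378), where the groups did not overlap. With 1 library left out, its log2 fold change ran from 0.10 to 0.32.

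The ligands that accompany presentation on the cell surface were higher or not called. Of 9 genes 7 were tested, of which 5 were higher, none was lower and 2 were not called, beside 28.2% higher and 28.8% lower among all genes. Cd80, a ligand of CD28 and CTLA-4, measured 5.12, 5.84, 4.28 and 5.44 CPM in the control and 11, 13.5, 9.82 and 11.7 CPM in the tranilast libraries. Every tranilast library was far above the control libraries, with a log2 fold change of 1.155 (SE 0.136, edgeR adjusted p = 1.01e-06). Its relative Cd86 had between 1 and 5 counts in the control and between 6 and 9 in the tranilast libraries and did not pass the filter, and Pdcd1lg2 was at 0 in every library. Tnfsf9, the ligand of 4-1BB, rose from 49.0 ± 3.2 to 76.2 ± 2.72 CPM (log2 fold change 0.63, SE 0.052, edgeR adjusted p = 7.61e-09). Icosl (0.39, SE 0.12) and the adhesion ligand Icam1 (0.18, SE 0.032) were higher too, and Cd40 (-0.06) and Cd48 (0.00) were not called. Cd274, which encodes PD-L1, was higher by 0.60 (SE 0.197, edgeR adjusted p = 0.0146), a call that was lost without tranilast library 1 (log2 fold change 0.44, edgeR adjusted p = 0.0793).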

How the data were processed

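The authors deposited, for each of 22063 genes, an estimated count, of which between 92.7% and 93.9% were whole numbers, and an FPKM value, normalized by the authors for transcript length and depth. Libraries were poly-A enriched and paired-end per the study's methods, and the aligner, counting tool, genome build and strand setting are not given in the sources used here. The counts were rounded, genes filtered with filterByExpr, libraries scaled by TMM (factors 0.956 to 0.965 in the control and 1.037 to 1.045 in the tranilast group), and groups, taken from the labels, compared with edgeR 4.0.16 (quasi-likelihood test, Benjamini-Hochberg adjustment over 10770 genes, threshold 0.05, no covariate). The study's methods name limma, which was run as an alternative (limma 3.58.1), with DESeq2 1.42.0, other scalings, filters and pseudocounts, a replicate block and each library left out. The code was tested on simulated data. R 4.3.3, Python 3.11.15, pandas 2.3.3, numpy 2.4.6 and scipy 1.17.1 were used. A count of 0 allows up to 3 counts, 0.196 to 0.240 CPM, counting error only. The biological coefficient of variation was 5.09%. Single values were compared by exact permutation of log2(CPM + 0.1) or of ratios. Coordinates are those of GENCODE M21 (GRCm38), in which 21973 identifiers were found. The members and lists were chosen with earlier results of these data known. All members, the called genes of each list, its extremes and those a count leaves out were named. Counts cover whole lists, of which some genes are not reported here. The raw reads were not analysed here.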

Additional observations from a re-analysis of the deposited data

Results flagged for a closer look

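Among 146 groups of 4 libraries, formed by all tested genes of the presentation lists, 9 values lay far from the other 3 of their group by Dixon's ratio, of which chance gives about 1 in 20 groups. All values are log2 CPM. In the control group, library 2 was high for Ctss at 8.503 (others 8.275 to 8.299), for Cst3 at 9.586 (9.496 to 9.5) and for Irf8 at 6.8 (6.732 to 6.738). Control library 4 was low for H2-T22 at 4.244 (4.554 to 4.593) and for Irf2 at 6.086 (6.297 to 6.322), control library 1 was low for Ide at 7.954 (8.021 to 8.025), and control library 3 was low for Marchf8 at 6.428 (6.515 to 6.525). In the tranilast group, library 3 was high for Calr at 10.05 (9.975 to 9.986) and library 4 was high for Nfyc at 5.569 (5.502 to 5.512). None of the 7 presentation genes that were tested was among them, and H2-Aa, H2-Ab1 and Ciita were not checked.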

How the results depend on the processing

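The call of B2m held under all alternatives run, with log2 fold changes from -0.34 to -0.18. The number of presentation genes called was 2, and it was 1 with upper-quartile factors, log2(FPKM + 1) and log2(FPKM + 0.1). These alternatives and the library size alone left 0 class II genes called, since Cd74 lost its call. Leaving out 1 library gave between 2 and 4 called genes, of class I between 1 and 3, the 4 without control library 4 or tranilast library 1. Class I had 2 called genes without a filter, where Nlrc5 was added, and 2 with the library size alone, where H2-D1 was added (log2 fold change 0.11, edgeR adjusted p = 0.0315).

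The library size alone shifted the median log2 fold change of all genes by 0.12, log2(FPKM + 1) by 0.11 and log2(FPKM + 0.1) by 0.11, since the TMM factors of the groups differ. The direction of small changes depended on the scaling, and which scaling is right was not tested. The share of called genes that were higher was 49.5% with TMM factors, 62.6% with upper-quartile factors, 70.9% with the library size alone and 70.5% and 70.4% on the FPKM scales. Genes called higher numbered 4613 with the library size alone against 3039, and genes called lower 1893 with the library size alone, 1660 with log2(FPKM + 1) and 1663 with log2(FPKM + 0.1) against 3104. The pathway genes called lower numbered 16 on both FPKM scales against 26.

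Log2 fold changes that turned direction were those of Cd74 with the library size alone (0.0094), log2(FPKM + 1) (0.010) and log2(FPKM + 0.1) (0.010), and of genes that were not called. H2-D1 was at 0.060 with upper-quartile factors, 0.11 with the library size alone and 0.11 on both FPKM scales (0.114 and 0.114), and between -0.031 and 0.040 with 1 library left out. Psmb9 was at 0.042, 0.092, 0.090 and 0.096 in the same order and between -0.065 and 0.040 with 1 library left out. Tap2 was at 0.0052 with upper-quartile factors, 0.055 with the library size alone and up to 0.025 with 1 library left out (lowest -0.162). Nlrc5 was at 0.059 and 0.063 on the FPKM scales, and H2-K1 lay between -0.020 and 0.123 with 1 library left out. Apart from what the missing samples or genes explain, the cause was not tested.

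Libraries of the same number deviated from their group means with correlations of -0.056, -0.044, 0.0076 and 0.11, so little deviation was shared by number. The labels do not state whether the numbers pair the libraries. With the replicate number as a block 6009 genes were called against 6143, and the presentation genes called stayed at 2. Depth limits H2-Aa, H2-Ab1 and Ciita. Without a filter the log2 fold change of H2-Ab1 was -0.47 (edgeR adjusted p = 0.701), and none is given for H2-Aa and Ciita, which had at most 3 counts in every library.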
